A study of Mus musculus with 4 samples.

Results

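The genes described here encode the subunits of the mitochondrial respiratory chain and of ATP synthase, from the nuclear and the mitochondrial genome. They were chosen by name among the 38124 gene IDs of the count tables: protein-coding genes whose symbols start with Nduf, Uqcr or Atp5, or with Cox and a digit from 4 to 8, together with Sdha, Sdhb, Sdhc, Sdhd, Cyc1 and the mitochondrially encoded messages. The rule found 107 genes, of which 94 are nuclear and 13 mitochondrially encoded, and 11 pseudogenes with such symbols were dropped. Of the nuclear genes, 85 encode subunits: 36 of complex I, 4 of complex II, 9 of complex III, 20 of complex IV and 16 of complex V. The remaining 9 are 8 Ndufaf genes, which encode assembly factors of complex I, and Atp5s, which is named for ATP synthase and was kept apart from its subunits. Ndufa4 and Ndufa4l2 were counted with complex IV. A total of 96 of the 107 genes had at least 20 counts in at least 2 libraries and were tested, and the other 11 are described with their counts below.

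Poly(A)-selected RNA was sequenced from sorted intestinal cells of C57BL/6 mice to compare intestinal stem cells and progenitors under a high-fat diet (HFD) and a control diet. The groups were GFP-high and GFP-low cells of HFD mice, and GFP-high and GFP-low cells of control mice, with 1 library each. The labels call GFP-high cells intestinal stem cells and GFP-low cells progenitors, and the titles call the control diet group WT. All mice were 71-week-old males, and each library held RNA of 200000 sorted cells pooled from 2 to 5 mice. The sources used here do not give the gene that drives GFP, the make-up of the diets or whether the same mice gave both GFP-high and GFP-low cells.

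The respiratory chain passes electrons from NADH through complex I, and from succinate through complex II, to coenzyme Q, complex III, cytochrome c and, at complex IV, to oxygen. Complexes I, III and IV pump protons across the inner membrane, and ATP synthase, complex V, uses the gradient to make ATP. Complexes I, III, IV and V join subunits of both genomes, while every subunit of complex II is nuclear, so the assembly of the chain draws on transcription in the nucleus and in the mitochondrion. In the crypt, Lgr5-positive stem cells, Paneth cells and absorptive cells are known to differ in their use of mitochondrial respiration.

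The library totals were 6207080 counts in HFD GFP-high cells, 5327015 in HFD GFP-low cells, 5201394 in control GFP-high cells and 4677389 in control GFP-low cells. The markers ran with the sort: 10 of 10 stem cell markers were higher in GFP-high and 12 of 12 enterocyte, 7 of 7 goblet, 6 of 6 Paneth, 5 of 5 tested enteroendocrine and 1 of 2 tested tuft markers were lower (edgeR adjusted p under the threshold of 0.05). Over all tested genes, 21.5% were called higher in GFP-high and 24.8% lower. Enterocyte markers also ran with diet: 6 of 12 were higher under HFD, and their summed level was 1154 and 7175 CPM in GFP-high and GFP-low cells under HFD, against 896 and 3433 CPM in those of the control diet. CPM are counts scaled to 1000000 per library, with TMM factors. Paneth markers ran the other way, with 6 of 6 lower under HFD (445 and 1101 CPM summed in the HFD fractions, 758 and 2234 CPM in the control fractions, GFP-high first). For diet, 2.26% of all tested genes were called higher and 3.0% lower. Of 10 leukocyte and 8 stromal markers, 1 each had enough counts to be tested, Itgam and Vim, and Ptprc, Tyrobp, Col1a1 and Col3a1 were at 0. Their summed levels were 10.6 and 12.3 CPM (leukocyte) and 5.85 and 3.81 CPM (stroma) in HFD and control GFP-high, against 22.8 and 34.8 CPM and 18.4 and 28.9 CPM in GFP-low. The HFD GFP-high library differed from the other libraries in its mitochondrial rRNA, as given with the mitochondrial messages below.

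Sequences are shown for the genes on which the results turn. The first pair concerns mt-Nd3, the complex I subunit that was called between the diets, and a nuclear copy of it. mt-Nd3 lies at chrM:9459-9806 (GRCm38, plus strand), and Gm28438 at chr1:24612775-24613119 (minus strand) matched 345 aligned bases of it with 1 mismatch, an identity of 99.71%. The stretches below are the first 100 bases of each in the direction of the transcript, chrM:9459-9558 and chr1:24613020-24613119, and the capital marks the base that differs.
mt-Nd3: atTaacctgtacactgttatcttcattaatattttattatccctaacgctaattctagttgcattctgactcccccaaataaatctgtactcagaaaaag
Gm28438: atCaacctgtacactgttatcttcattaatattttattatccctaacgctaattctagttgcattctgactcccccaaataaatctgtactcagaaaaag
The second pair concerns mt-Nd4l, the message that was listed at 0 in all 4 libraries. mt-Nd4l lies at chrM:9877-10173 (plus strand), overlaps mt-Nd4 and has a copy, Gm10222, at chr1:24612407-24612700 (minus strand) with 0 mismatches over 294 bases. Gm10222 was also listed at 0. The stretches are chrM:9877-9976 and chr1:24612601-24612700 and hold no differing base.
mt-Nd4l: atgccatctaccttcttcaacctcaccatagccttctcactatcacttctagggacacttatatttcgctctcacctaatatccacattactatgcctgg
Gm10222: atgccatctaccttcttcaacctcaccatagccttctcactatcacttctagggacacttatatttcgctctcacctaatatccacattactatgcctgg
Copies without a mismatch on chromosome 1 were also found for mt-Co2, mt-Co3 and mt-Atp6. Of the 50-base windows of mt-Nd3, 293 of 299 occurred in the transcript of another gene, and for the other 4 of these messages 98.8% or more did. Reads of that length counted for these messages could thus belong to either copy. Among these copies, Gm10222 was found by symbol among the counted genes. Gm28438 and the copies of mt-Co2, mt-Co3 and mt-Atp6 were not.

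Promoters were read for 76 of the 94 nuclear genes, as 81 windows of RefSeq (GRCm38.p6) from 250 bases before to 50 bases after a gene's start. Motifs were searched as exact letters on both strands. GCGCATGCG, a core of the NRF1 site, stood in 12.3% of the 81 windows, in 3.90% of the windows of all tested genes and in 1.75% of all windows of the table. The looser GCGCANGCG, which holds every match of the first, stood in 28.4%, 13.9% and 6.25%. AAGATGGC, the YY1 motif, stood in 13.6%, 4.80% and 2.75%, and CCGGAAG, the ETS and GABP motif, in 22.2%, 18.9% and 8.86%. The nuclear receptor motif TGACCT stood in 21.0%, 12.4% and 16.3%. AAGGTCA, which holds TGACCT read on the other strand, stood in 9.88%, 3.17% and 4.72%. The 10 genes with GCGCATGCG were Atp5g2, Atp5k, Atp5l, Cox6a1, Ndufa8, Ndufa11, Ndufaf4, Ndufaf5, Uqcr11 and Uqcrc1. Matches describe letters in these windows, not bound sites.
Windows of 3 genes are printed 5′ to 3′ on the gene's strand, because Atp5k has this motif and one of the lowest ratios between the fractions, Cox6a1 has it and encodes a widespread isoform of complex IV, and Cox7a1, the gene with the lowest ratio, held 0 of the 6 motifs. Capitals mark motif matches. Atp5k is at chr5:108434350-108434649 (minus strand), Cox6a1 at chr5:115348909-115349208 (minus strand) and Cox7a1 at chr7:30183921-30184220 (plus strand).
Atp5k: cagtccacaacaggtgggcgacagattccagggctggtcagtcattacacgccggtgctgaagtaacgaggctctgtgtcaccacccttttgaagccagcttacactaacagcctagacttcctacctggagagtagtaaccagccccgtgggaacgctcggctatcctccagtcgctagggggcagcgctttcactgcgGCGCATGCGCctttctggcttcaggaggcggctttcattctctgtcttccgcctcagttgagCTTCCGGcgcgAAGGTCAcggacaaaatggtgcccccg
Cox6a1: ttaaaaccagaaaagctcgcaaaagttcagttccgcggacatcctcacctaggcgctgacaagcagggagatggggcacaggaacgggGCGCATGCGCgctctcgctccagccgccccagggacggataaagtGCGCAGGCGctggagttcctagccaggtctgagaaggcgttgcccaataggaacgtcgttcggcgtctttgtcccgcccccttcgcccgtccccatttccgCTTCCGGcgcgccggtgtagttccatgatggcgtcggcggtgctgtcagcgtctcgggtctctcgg
Cox7a1: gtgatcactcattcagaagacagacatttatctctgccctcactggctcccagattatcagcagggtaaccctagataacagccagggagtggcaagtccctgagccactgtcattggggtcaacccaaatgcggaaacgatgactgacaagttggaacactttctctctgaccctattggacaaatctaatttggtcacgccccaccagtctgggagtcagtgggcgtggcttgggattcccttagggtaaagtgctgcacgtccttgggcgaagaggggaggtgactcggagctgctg

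The mitochondrially encoded messages were far more abundant than the nuclear ones. On the scale of CPM per kilobase of transcript, the median of the 13 mitochondrial genes was 139 (GFP-high) and 114 (GFP-low) under HFD, and 142 (GFP-high) and 121 (GFP-low) under the control diet, times that of the tested nuclear subunits. Each length was that of 1 protein-coding transcript per gene, the one ranked first as principal in the annotation and the longest among equals, so levels on this scale depend on that choice. mt-Atp6, a subunit of the proton channel of ATP synthase, was at 41273 and 47261 CPM per kilobase in the HFD fractions and at 39235 and 41023 in the control fractions, GFP-high first in each. Among nuclear subunits, Atp5b, the catalytic beta subunit of ATP synthase, was at 784 and 1122 in the HFD fractions and at 673 and 867 in the control fractions. Atp5a1, its alpha partner, was at 550 and 783, against 466 and 627. Low levels were found beside them within the same complex: Atp5g1, 1 of 3 genes for the c subunit of the rotor, was at 5.34 and 7.11, against 5.27 and 6.71 CPM per kilobase, while Atp5g3, which encodes the same mature protein, was at 303 and 500, against 266 and 417. Of the 50-base windows of Atp5g1, 11.1% occurred in other transcripts.

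**Figure D1:**
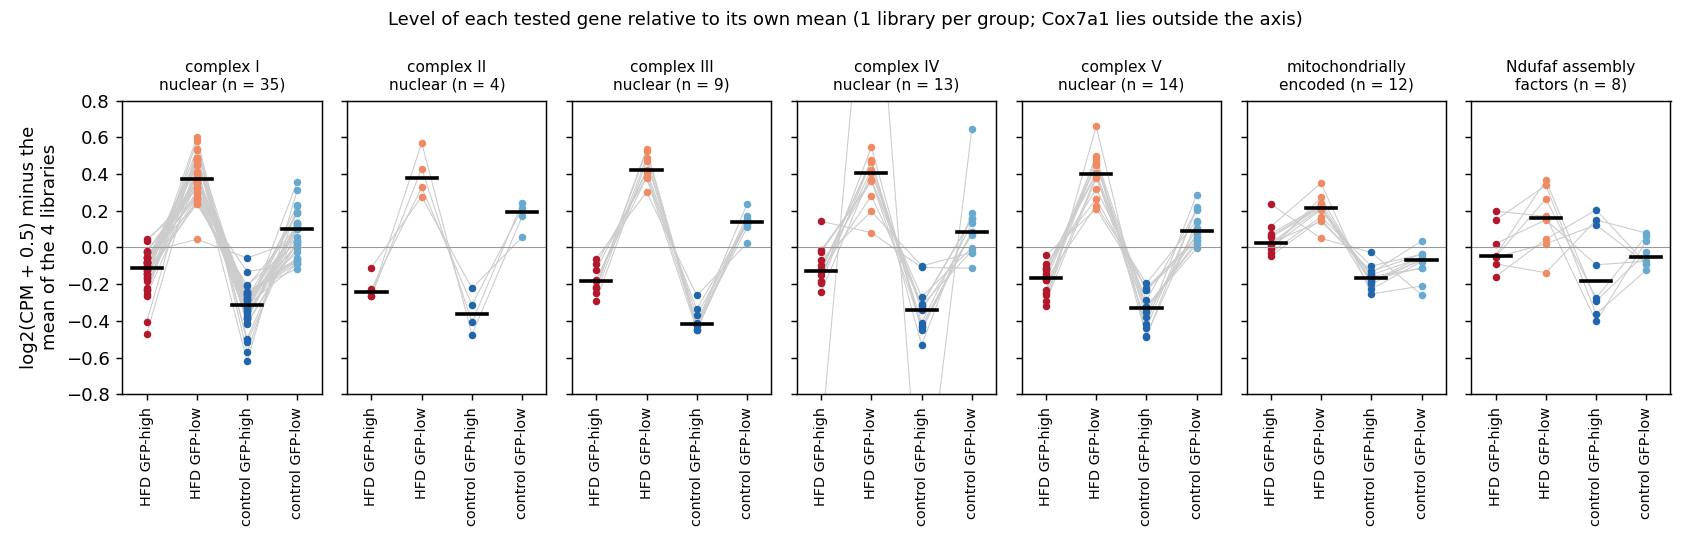
Level of each tested gene as log2(CPM + 0.5) minus its own mean over the 4 libraries (vertical axis), by library (horizontal axis) and group of genes; grey lines join the points of a gene and black bars are medians. Medians of the nuclear complexes are lowest in the GFP-high libraries, those of the mitochondrially encoded genes are lowest in the control libraries, and Cox7a1 lies outside the axis.

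The fractions were compared first. Nuclear subunits of every complex were lower in GFP-high than in GFP-low cells, under both diets, and the mitochondrially encoded messages had smaller ratios, though the difference between the genomes was not tested. Of the 96 tested genes, 65 fell in GFP-high and 0 rose (edgeR's quasi-likelihood test, adjusted p under 0.05), where 24.8% of all 10694 tested genes fell and 21.5% rose. All 65 were among the 75 tested nuclear subunits, whose median log2 ratio was -0.51, a 1.42-fold lower level in GFP-high, against 0.01 over all tested genes. The log2 ratio was below 0 for 90 of the 96 genes (49.5% of all tested genes). Within the diets, 91 of 96 were lower in GFP-high under HFD (49.9% of all) and 91 of 96 under the control diet (49.7%), and 89 were lower under both (41.0%). Both GFP-high libraries lay below both GFP-low libraries for 66 of 75 nuclear subunits and 1 of 12 mitochondrial messages (33.9% of all tested genes). With library totals as the scale, in place of TMM, the median of all genes moved up by 0.19, that of the nuclear subunits stood at -0.32, 45 members were called lower and 1, mt-Nd6, higher. DESeq2's Wald test called 34 lower, and a model without diet 26.

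In complex I, 28 of 35 tested nuclear subunits fell in GFP-high, with a median log2 ratio of -0.46. Of the core subunits, which carry electrons from NADH to coenzyme Q, 6 of 7 fell (median -0.41), and of the accessory subunits, 22 of 28 fell (median -0.47). Ndufv1, the NADH-binding subunit, was at 133 and 112 CPM in HFD and control GFP-high, against 169 and 132 CPM in HFD and control GFP-low (log2 ratio -0.30 ± 0.10 SE, edgeR adjusted p = 0.0261). Ndufs1, the largest iron-sulfur subunit, was at 114 and 110, against 176 and 143 CPM (-0.51 ± 0.10 SE, edgeR adjusted p = 0.00209). Ndufa10, an accessory subunit (-0.32 ± 0.10 SE, edgeR adjusted p = 0.0243), and Ndufs7, which carries the last iron-sulfur cluster before coenzyme Q, had with Ndufv1 the smallest differences that passed (-0.28 ± 0.11 SE, edgeR adjusted p = 0.0469).

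The accessory subunits of complex I held 4 of the 6 genes with the lowest log2 ratios past the test. Ndufb6 was at 24.3 and 26.3 CPM in HFD and control GFP-high, against 47.3 and 43.6 CPM in GFP-low, 1.80-fold lower (-0.85 ± 0.14 SE, edgeR adjusted p = 0.000523). Ndufb10 was at 80.5 and 63.5, against 142 and 111 CPM, 1.75-fold lower (-0.81 ± 0.10 SE, edgeR adjusted p = 9.94e-05). Ndufv3 (1.69-fold, edgeR adjusted p = 0.000514) and Ndufa11, a membrane-arm subunit (1.68-fold, edgeR adjusted p = 0.00121), were lower to a like degree. In each of these 4 genes both GFP-high libraries lay below both GFP-low libraries. Ndufb6 overlaps Smim27 and Ndufa11 overlaps Vmac on the opposite strand, 31.6% of the windows of Ndufb6 occurred in other transcripts, and the strand setting of the counting is not given in the sources used here. The accessory subunits Ndufa2, Ndufa7, Ndufa12, Ndufb2, Ndufb4 and Ndufb11 did not pass, with log2 ratios between -0.39 for Ndufb4 and -0.09 for Ndufa7.

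All 4 subunits of complex II, the succinate dehydrogenase of the citric acid cycle, fell in GFP-high, with a median log2 ratio of -0.61. Sdhb, its iron-sulfur subunit, was at 146 and 126 CPM in HFD and control GFP-high, against 261 and 198 CPM in HFD and control GFP-low (-0.74 ± 0.10 SE, edgeR adjusted p = 0.000126). The membrane anchors Sdhc (-0.54 ± 0.09 SE, edgeR adjusted p = 0.000806) and Sdhd (-0.68 ± 0.09 SE, edgeR adjusted p = 0.000179) fell too. Sdha, the flavin subunit that oxidizes succinate, had the smallest difference of the complex, at 447 and 413, against 584 and 501 CPM (-0.33 ± 0.10 SE, edgeR adjusted p = 0.0152).

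All 9 nuclear subunits of complex III fell in GFP-high, with a median log2 ratio of -0.55 and a range of -0.71 to -0.33. Uqcrfs1, the Rieske iron-sulfur protein, was at 88.0 and 80.6 CPM in HFD and control GFP-high, against 149 and 127 CPM in GFP-low (-0.71 ± 0.10 SE, edgeR adjusted p = 0.000209). Cyc1, the cytochrome c1 that hands electrons to cytochrome c, was at 245 and 209, against 412 and 317 CPM (-0.67 ± 0.10 SE, edgeR adjusted p = 0.000217). Uqcrc1, a core protein of the complex, was at 370 and 320, against 624 and 464 CPM (-0.65 ± 0.10 SE, edgeR adjusted p = 0.000376). Its partner Uqcrc2 was lower by 0.55 on the log2 scale (edgeR adjusted p = 0.000761), and Uqcr10, a small subunit, had the smallest difference (-0.33 ± 0.10 SE, edgeR adjusted p = 0.022). Both GFP-high libraries lay below both GFP-low libraries for 9 of 9.

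In complex IV, 11 of 13 tested nuclear subunits fell in GFP-high, with a median log2 ratio of -0.49. Cox5a, a matrix-side subunit, was at 123 and 92.9 CPM in HFD and control GFP-high, against 187 and 153 CPM in GFP-low (-0.66 ± 0.10 SE, edgeR adjusted p = 0.000259), and Cox5b was close to it (-0.64 ± 0.11 SE, edgeR adjusted p = 0.000629). Cox4i1, the widespread form of subunit 4, was at 288 and 235, against 377 and 290 CPM (-0.34 ± 0.09 SE, edgeR adjusted p = 0.012). Ndufa4, first described in complex I and now placed in complex IV, fell by 0.37 on the log2 scale (edgeR adjusted p = 0.0135), and Cox6a1, Cox6b1, Cox7b and Cox8a fell by 0.49, 0.55, 0.61 and 0.44. Cox7a2l, counted here with complex IV by its symbol, did not separate the fractions. It was at 110 and 92.0 CPM in HFD and control GFP-high, against 105 and 91.8 CPM in GFP-low (0.03 ± 0.10 SE, edgeR adjusted p = 0.813). Cox7c, with 28 to 41 counts in a library, did not pass (-0.19 ± 0.30 SE, edgeR adjusted p = 0.637), and 22.1% of its windows occurred in another gene's transcript.

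In complex V, 13 of 14 tested nuclear subunits fell in GFP-high, with a median log2 ratio of -0.48. Atp5k, the e subunit of the membrane part, was at 31.3 and 28.0 CPM in HFD and control GFP-high, against 62.2 and 43.2 CPM in GFP-low, 1.77-fold lower (-0.82 ± 0.14 SE, edgeR adjusted p = 0.00066). Atp5o, the subunit that ties the catalytic head to the stator stalk, fell too (-0.72 ± 0.09 SE, edgeR adjusted p = 0.000118), and 41.6% of its windows occurred in other transcripts. Atp5a1 and Atp5b of the catalytic head fell by 0.47 (edgeR adjusted p = 0.0035) and 0.44 (edgeR adjusted p = 0.00562). Atp5g3 fell by 0.69 (edgeR adjusted p = 0.000166) and Atp5g1 by 0.38, close to the threshold (edgeR adjusted p = 0.0476). Atp5j, a stalk subunit, had the smallest difference that passed (-0.32 ± 0.10 SE, edgeR adjusted p = 0.024). Atp5e, the small epsilon subunit, did not pass (-0.27 ± 0.11 SE, edgeR adjusted p = 0.0726). Both GFP-high libraries lay below both GFP-low libraries for all 14.

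Cox7a1 was the gene with the lowest ratio. It encodes the form of subunit 7a known from heart and skeletal muscle, next to Cox7a2, the widespread form. Cox7a1 had 14 and 7 counts in HFD and control GFP-high (2.10 and 1.27 CPM), against 104 and 35 counts in HFD and control GFP-low (21.0 and 7.91 CPM). It was 8.42-fold lower in GFP-high (log2 ratio -3.07 ± 0.35 SE, edgeR adjusted p = 3.97e-05), with all GFP-high values below all GFP-low values. Cox7a2 was at 65.7 and 62.6, against 103 and 86.8 CPM (-0.57 ± 0.11 SE, edgeR adjusted p = 0.00171). Cox7a1 counts were 3.2% and 2.03% of those of Cox7a2 in HFD and control GFP-high, against 20.3% and 9.11% in GFP-low. The muscle genes Ckm and Actc1 were listed at 0 in all 4 libraries, and Mb and Des had 1 count each in HFD GFP-low.

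Of the other tissue-restricted isoforms of complex IV, Cox6b2 had 31 and 10 counts in HFD and control GFP-high, against 12 and 0 in GFP-low, and the rest had 0 to 2 counts in a library. Cox6a2, known from muscle, had 2 counts in HFD GFP-low and 0 in the other libraries, and Cox8b, another muscle form, had 0 in every library. Cox4i2, known from lung, had 1 count in control GFP-low. Cox7b2 and Cox8c, known from testis, and Ndufa4l2, known from hypoxic cells, had 0 counts throughout. A count of 0 allows up to 3 counts, or 0.45 to 0.678 CPM depending on the library. The remaining untested members were Ndufs5 of complex I (10 and 5 counts in HFD and control GFP-high, 15 and 12 in GFP-low), Atp5l (2 and 0, against 1 and 0), Atp5g2, mt-Nd4l and Cox6b2. Atp5g2 was listed at 0 in every library, and 38.3% of its 50-base windows occurred in other transcripts (21.7% for Ndufs5 and 10% for Atp5l). A 0 of these genes is a listed value, because the sources used here do not give how reads shared between copies were counted.

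**Figure D2:**
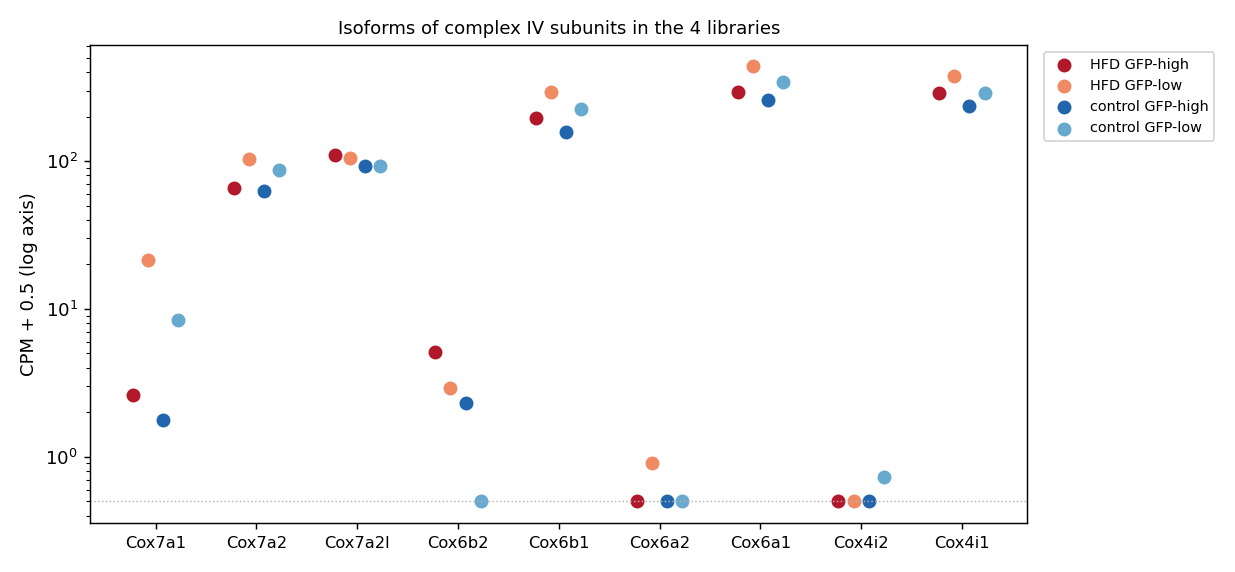
CPM + 0.5 on a log axis (vertical) of isoforms of complex IV subunits (horizontal) in the 4 libraries; the dotted line is 0 CPM. Cox7a1 stands at 21.0 and 7.91 CPM in the HFD and control GFP-low libraries, above both GFP-high libraries, and the widespread isoforms are at 62.6 CPM or more.

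Of the 12 tested mitochondrially encoded messages, 0 were called between the fractions by edgeR, 0 by DESeq2, and 0 had an unadjusted p under 0.05 in edgeR. Their median log2 ratio was -0.15, and it was 0.04 with library totals as the scale, so its sign rests on the scaling. mt-Cytb, the mitochondrial subunit of complex III, was at 25759 and 22219 CPM in HFD and control GFP-high, against 28799 and 22889 CPM in GFP-low (-0.10 ± 0.13 SE, edgeR adjusted p = 0.559). mt-Co1, the catalytic subunit of complex IV, was at 22474 and 20165, against 24345 and 21506 CPM (-0.10 ± 0.13 SE, edgeR adjusted p = 0.542). mt-Nd1 had the lowest ratio (-0.21 ± 0.13 SE, edgeR adjusted p = 0.201). The standard errors of the mitochondrial genes, 0.09 to 0.13, were close to those of most nuclear subunits.

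mt-Nd6 was the 1 mitochondrial message with a ratio above 0 on the TMM scale; with library totals, 10 of the 12 were above 0, all but mt-Nd1 and mt-Atp8. It is the subunit encoded on the light strand of mitochondrial DNA, opposite to mt-Nd5, which it overlaps. mt-Nd6 was at 192 and 160 CPM in HFD and control GFP-high, against 169 and 136 CPM in GFP-low (0.21 ± 0.09 SE, edgeR adjusted p = 0.094). With library totals it passed the test (log2 ratio 0.40, edgeR adjusted p = 0.00388). Its counts were 1.94% and 1.79% of those of mt-Nd5 in HFD and control GFP-high, against 1.48% and 1.43% in GFP-low. How fully poly(A) selection captured mt-Nd6 was not tested, and it is unknown whether the counting kept the strands apart. The shares and the ratio between the fractions thus describe counts, not the abundance of the message.

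**Figure D3:**
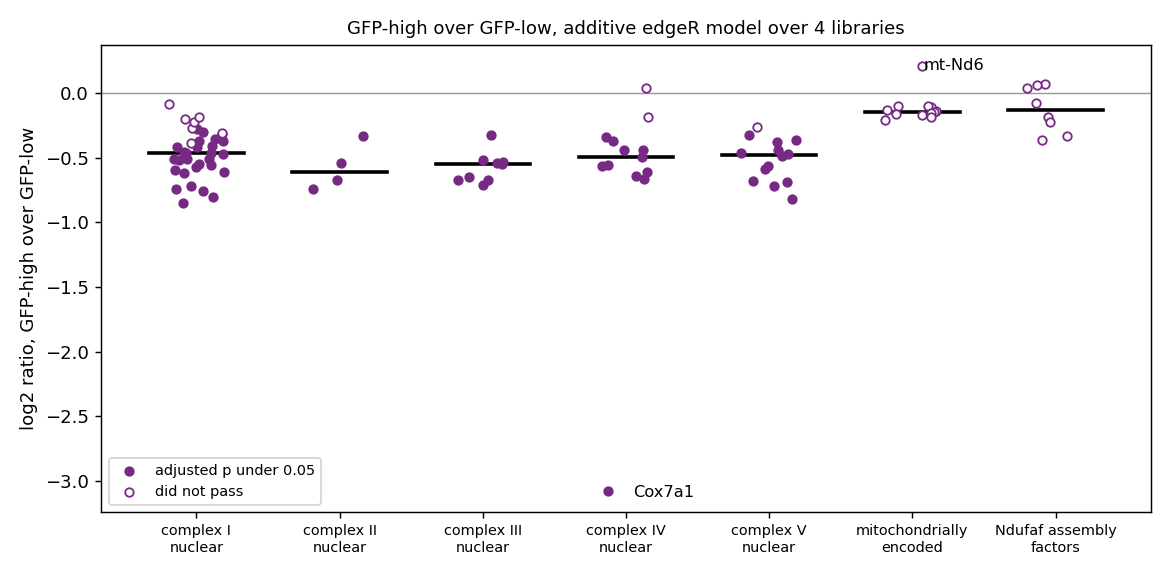
Log2 ratio between GFP-high and GFP-low, the first over the second, from the additive edgeR model (vertical axis) for each tested gene, by complex and genome (horizontal axis); filled points had an adjusted p under 0.05, open points did not, and black bars are medians. The nuclear complexes have medians between -0.61 and -0.46, the mitochondrially encoded genes -0.15 with 0 filled points, and Cox7a1 stands at -3.07.

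Of the 8 Ndufaf genes 0 passed (1 had an unadjusted p under 0.05 in edgeR), with a median log2 ratio of -0.13 and a range of -0.36 to 0.07. Their counts were lower, between 26 for Ndufaf6 and 221 for Ndufaf4, and their standard errors of 0.13 to 0.30 were larger. Ndufaf4 came nearest to the threshold (-0.33 ± 0.13 SE, edgeR adjusted p = 0.0632). In the wider list of 46 assembly factors, 10 of 43 tested genes fell and 0 rose, with a median of -0.21; 24.8% of all tested genes fell and 21.5% rose, so the count that fell is not above that background. Cox10, an enzyme on the path to the heme A of complex IV, fell by 0.56 (edgeR adjusted p = 0.00312). Cox11, a copper chaperone of the same complex, fell by 1.0 (edgeR adjusted p = 0.0095). Ecsit, a complex I assembly factor, fell by 0.65 (edgeR adjusted p = 0.00126). Atp5s was 0.24 ± 0.34 SE (edgeR adjusted p = 0.595).

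Genes around the chain differed in direction. Cycs, the cytochrome c between complexes III and IV, was at 39.1 and 31.0 CPM in HFD and control GFP-high, against 79.6 and 58.5 CPM in GFP-low (-0.97 ± 0.12 SE, edgeR adjusted p = 8.49e-05). In the coenzyme Q and cytochrome c list 4 of 15 genes fell and 2 rose (median -0.27), and Coq2 and Coq8a of coenzyme Q synthesis were those that rose. These counts are near or under the shares of all tested genes, 24.8% and 21.5%. Of 13 tested genes for other electron inputs and uncoupling, 10 fell and 1 rose (median -0.43), among them Sqor, the sulfide-quinone oxidoreductase (-1.23 ± 0.12 SE, edgeR adjusted p = 1.3e-05), and the electron-transferring flavoproteins Etfa and Etfb. Of 20 other mitochondrial membrane and matrix genes, 6 fell and 0 rose (median -0.15), a count near the 24.8% of all tested genes that fell.

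Of 25 tested genes that maintain and express mitochondrial DNA, 4 rose in GFP-high and 1 fell, with a median of 0.16, and neither count is above the background of 21.5% that rose and 24.8% that fell. Tfam, which packages mitochondrial DNA and starts its transcription, was at 76.6 and 67.9 CPM in HFD and control GFP-high, against 52.1 and 52.0 CPM in GFP-low (0.47 ± 0.12 SE, edgeR adjusted p = 0.00672). Twnk, the mitochondrial helicase, was at 60.3 and 59.5, against 36.8 and 35.7 CPM (0.72 ± 0.12 SE, edgeR adjusted p = 0.000676). Polrmt, the mitochondrial RNA polymerase, stood at -0.02 ± 0.12 SE (edgeR adjusted p = 0.904). In the list of nuclear regulators, 5 of 13 genes fell and 2 rose, beside 24.8% and 21.5% of all tested genes. Ppargc1a, the PGC-1 alpha coactivator, fell by 1.20 (edgeR adjusted p = 0.000326) and Esrra, a receptor it works with, by 0.74 (edgeR adjusted p = 0.000181), while Pprc1, a related coactivator, rose by 0.62 (edgeR adjusted p = 0.000517). Nrf1 and Gabpa, factors that bind promoters of respiratory genes, were at 0.13 ± 0.13 SE and -0.07 ± 0.11 SE (edgeR adjusted p = 0.45 and 0.656), and Ppargc1b, the beta relative of Ppargc1a, was at -0.24 ± 0.12 SE (edgeR adjusted p = 0.143).

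Median log2 ratios between the fractions were -2.82 for enterocyte, -2.90 for goblet, -3.36 for enteroendocrine and -1.38 for Paneth markers. In HFD and control GFP-low, goblet markers summed to 17749 and 40416 CPM, and enterocyte markers to 7175 and 3433 CPM. The part of these cell types in the lower nuclear subunits was not tested. In bulk libraries such as these, fewer cells of a type and less RNA per cell cannot be told apart.

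The diets were compared next, over both fractions. Members of both genomes were slightly higher under HFD, and 1 gene of 96, mt-Nd3, passed the test, while 0 were lower (edgeR, adjusted p under 0.05; DESeq2 called 0), where 2.26% of all tested genes rose and 3.0% fell, so the count of 1 is not above that background. The log2 ratio was above 0 for 93 of 96 genes (51.8% of all), with a median of 0.27, a 1.20-fold higher level, against 0.01 over all tested genes. An unadjusted p under 0.05 was reached by 46 of the 96, each of them higher under HFD (9.65% of all genes were higher and 10.3% lower at that level). In 89 of 96 genes the HFD library was higher in both fractions (33.9%). Without a filter on low counts, 20 of the members passed, and without fraction in the model 0 did, as did 0 of all genes.

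mt-Nd3, a subunit of the membrane arm of complex I, had 5570 (GFP-high) and 4873 (GFP-low) counts under HFD, against 3568 and 2952 counts under the control diet. On the CPM scale it was at 835 and 984 under HFD and at 648 and 667 under the control diet, so that the diets did not overlap. It rose 1.38-fold under HFD (log2 ratio 0.46 ± 0.10 SE, edgeR adjusted p = 0.024), and with DESeq2 its adjusted p was 0.198. Reads of 50 bases from its nuclear copy, printed above, could not be told from its own over 293 of its 299 windows of that length.

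The other mitochondrial messages stood between 0.11 and 0.30 on the log2 scale and did not pass. mt-Co3 of complex IV was at 10767 and 11977 CPM in the HFD fractions and at 8730 and 9689 CPM in the control fractions, GFP-high first (0.30 ± 0.12 SE, edgeR adjusted p = 0.189). mt-Nd4 was at 24502 and 27350, against 20754 and 21697 CPM (0.29 ± 0.13 SE, edgeR adjusted p = 0.256). mt-Atp8, a small subunit of the proton channel, had the smallest difference, at 2839 and 3262, against 2663 and 3004 CPM (0.11 ± 0.11 SE, edgeR adjusted p = 0.642). Both HFD libraries lay above both control libraries for 11 of 12 mitochondrial messages and for 9 of 75 nuclear subunits (11.5% of all tested genes), the nuclear count being near that background. This measure also takes in the difference between the fractions, whose median log2 ratio was -0.51 in nuclear subunits and -0.15 in mitochondrial messages. Compared within each fraction, 72 of 75 nuclear subunits and 12 of 12 mitochondrial messages were higher under HFD in both (33.9% of all tested genes). The 4 tested messages with a near-identical nuclear copy had a median log2 ratio of 0.27, and the other 8 had 0.26. Those 8 were not free of copies, since 62.2% of the windows of mt-Nd4 and 51.1% of those of mt-Co1 occurred in other transcripts.

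As a share of all counts, the 13 mitochondrial messages took 17.1% (GFP-high) and 16.8% (GFP-low) under HFD, against 14.9% (GFP-high) and 14.1% (GFP-low) under the control diet; the exact 95% binomial interval, which covers counting error alone, was 17.06 to 17.12% in HFD GFP-high and of like width in the others. The 85 nuclear subunits took 1.16% and 1.46%, against 0.990% and 1.19%. Mitochondrial messages thus stood at 14.7 and 11.5 counts per nuclear subunit count in the HFD fractions and at 15 and 11.9 in the control fractions, higher in GFP-high than in GFP-low under each diet and close between the diets. With 2 libraries against 2, an exact permutation test cannot go below p = 0.333, and none was made. Mitochondrial ribosomal RNA, which largely lacks the tails that poly(A) selection binds, took 1.18% (GFP-high) and 2.82% (GFP-low) under HFD, against 2.54% (GFP-high) and 2.60% (GFP-low) under the control diet. The HFD GFP-high library had 0.0689 ribosomal counts per mitochondrial message count, against 0.168 to 0.184 in the other libraries, and the part of this difference in the results was not tested. Without that library, the diets can be set against each other in GFP-low alone and the fractions under the control diet alone, and those values are given above and below.

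**Figure D4:**
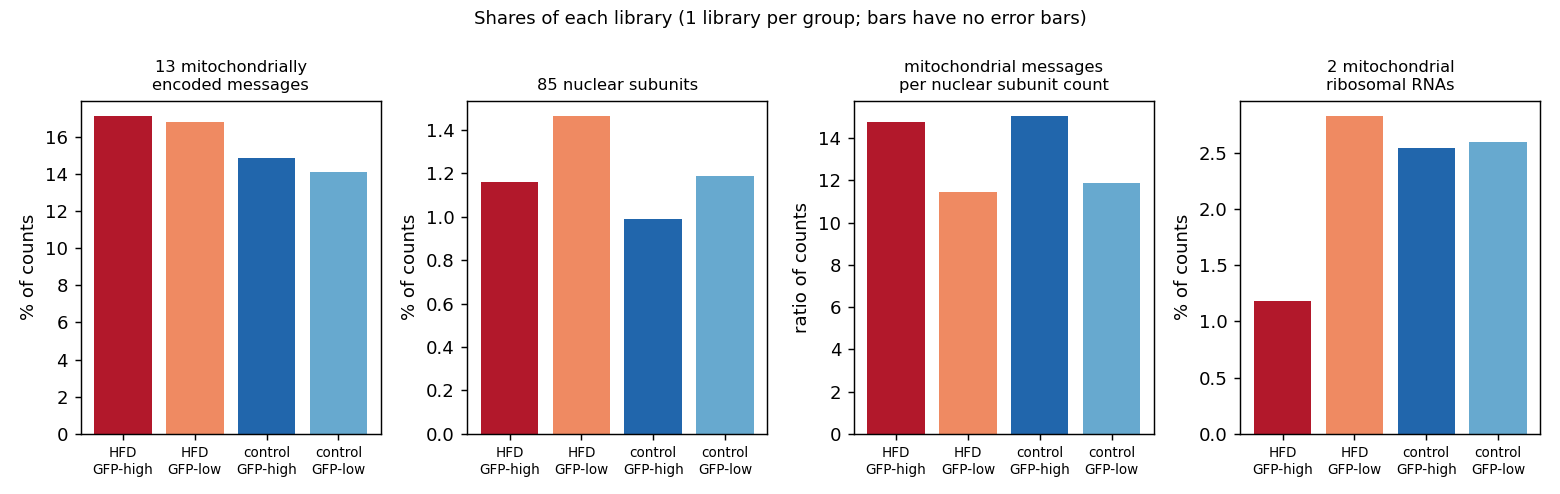
Shares of each library's counts (vertical axes, in percent, or a ratio of counts) for the 4 libraries (horizontal axes), 1 library per bar and no error bars. The mitochondrial messages take 17.1% and 16.8% under HFD and 14.9% and 14.1% under the control diet, and the ribosomal RNAs take 1.18% in HFD GFP-high.

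Among nuclear subunits, 75 of 75 log2 ratios were above 0, with a median of 0.27, and 0 passed the test. The medians by complex were 0.28 for complex I, 0.17 for complex II, 0.25 for complex III, 0.28 for complex IV and 0.25 for complex V, and were not tested against each other. In complex I the highest nuclear ratio was that of Ndufa5, an accessory subunit of the matrix arm, at 36.0 and 62.4 CPM in the HFD fractions and 28.5 and 44.1 CPM in the control fractions (0.42 ± 0.13 SE, edgeR adjusted p = 0.0902). The lowest was that of Ndufb6, at 24.3 and 47.3, against 26.3 and 43.6 CPM (0.01 ± 0.14 SE, edgeR adjusted p = 0.982). In complex II, Sdhb was highest (0.31 ± 0.10 SE, edgeR adjusted p = 0.105) and Sdhc lowest (0.10 ± 0.09 SE, edgeR adjusted p = 0.604). In complex III, Uqcrc1 was highest (0.32 ± 0.10 SE, edgeR adjusted p = 0.101) and Uqcrfs1 lowest (0.18 ± 0.10 SE, edgeR adjusted p = 0.354). In complex V, Atp5k was highest (0.36 ± 0.14 SE, edgeR adjusted p = 0.179) and Atp5g1 lowest (0.05 ± 0.14 SE, edgeR adjusted p = 0.885).

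In complex IV, Cox7a1 had the highest diet ratio and Cox7c the lowest (0.13 ± 0.30 SE, edgeR adjusted p = 0.85). Cox7a1 had 14 (GFP-high) and 104 (GFP-low) counts under HFD, against 7 and 35 under the control diet, a 2.38-fold higher level that did not pass (1.25 ± 0.33 SE, edgeR adjusted p = 0.056). It passed with library totals (edgeR adjusted p = 0.0482), without a filter (edgeR adjusted p = 0.00355) and with a common dispersion for all genes (edgeR adjusted p = 0.0352), and its adjusted p was 0.787 with DESeq2. Within GFP-low its log2 ratio was 1.35, and within GFP-high, at 14 against 7 counts, it was 0.55. Cox6b1, a subunit on the intermembrane side, came next to the threshold (0.35 ± 0.09 SE, edgeR adjusted p = 0.0613) and passed with library totals and with a filter of 100 counts (edgeR adjusted p = 0.0493 and 0.0455). Cox6b2, the testis form of that subunit, had 31 (GFP-high) and 12 (GFP-low) counts under HFD, against 10 and 0 under the control diet, and was not tested.

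Of the Ndufaf genes, Ndufaf3, Ndufaf5 and Ndufaf7 had log2 ratios below 0 under HFD (-0.05, -0.24 and -0.14), the members of the whole set that did, and 0 of 8 passed. Among 43 tested assembly factors, Ecsit rose (0.49 ± 0.12 SE, edgeR adjusted p = 0.046) and 0 fell. That 1 call of 43 is near the 2.26% of all tested genes that rose. Coq8a, a kinase-like protein of coenzyme Q synthesis, rose (0.48 ± 0.11 SE, edgeR adjusted p = 0.0356). It was the 1 call of its list of 15, a single gene beside the same 2.26%. Beside 2.26% of all tested genes, 3 of 13 tested genes for other electron inputs and uncoupling rose. They were Etfb (0.77 ± 0.11 SE, edgeR adjusted p = 0.00181) and Etfdh (0.50 ± 0.11 SE, edgeR adjusted p = 0.0244), which bring electrons of fatty acid oxidation to coenzyme Q, and Ucp2, an inner membrane carrier (0.53 ± 0.10 SE, edgeR adjusted p = 0.0111). Ppargc1a was at 20.1 and 56.4 CPM in the HFD fractions, against 13.6 and 23.1 CPM in the control fractions (0.98 ± 0.19 SE, edgeR adjusted p = 0.0109), and Esrrg, an orphan receptor, fell (-0.81 ± 0.21 SE, edgeR adjusted p = 0.0492). Ppargc1b was at -0.40 ± 0.12 SE (edgeR adjusted p = 0.0969). Tfam stood at 0.10 ± 0.12 SE, Nrf1 at -0.04 ± 0.13 SE and Gabpa at 0.13 ± 0.11 SE, and 0 of 25 genes of mitochondrial DNA maintenance and expression and 0 of 20 other mitochondrial genes passed. The log2 ratio was above 0 for 20 of 25 genes (median 0.14) and 19 of 20 (median 0.16), against 51.8% of all tested genes. It was above 0 for 14 of 15 coenzyme Q and cytochrome c genes (median 0.20) and 10 of 13 other electron inputs (median 0.20). Of the assembly factors 31 of 43 were above 0 (median 0.11), and of the regulators 7 of 13 (median 0.004). The rise was thus not particular to the subunits, and the lists were not compared by a test.

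Within GFP-high, 1 HFD library was set against 1 control library, with no test. There 90 of 96 members were higher under HFD (52.8% of all tested genes), with a median log2 ratio of 0.20, and 13 were at least 1.25-fold higher (13% of all, close to the members' share). Within GFP-low, 94 of 96 were higher (50.5%), with a median of 0.30, and 41 were at least 1.25-fold higher (16.8%). Summed over the 85 nuclear subunits, the log2 ratio was 0.21 in GFP-high (interval 0.19 to 0.22) and 0.32 in GFP-low (0.31 to 0.34), and summed over the mitochondrial messages it was 0.18 (0.18 to 0.18) and 0.27 (0.27 to 0.28). These are exact 95% intervals for counts and cover counting error alone. The HFD ratio was smaller in GFP-high than in GFP-low for 76 of 96 members, among them 12 of 12 mitochondrial messages (49.4% of all tested genes). This difference has no residual degree of freedom and was not tested, and its median was -0.11 on the log2 scale. With library totals, the HFD ratio was larger in GFP-high for 31 members in place of 20.

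**Figure D5:**
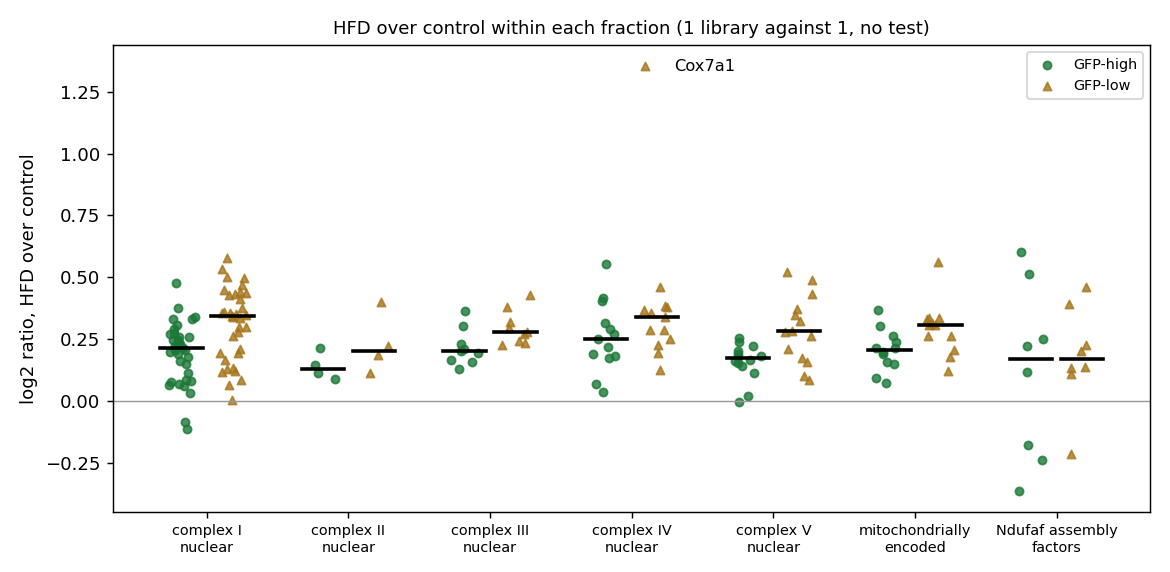
Log2 ratio of HFD over control (vertical axis) of each tested gene within GFP-high (green circles) and GFP-low (brown triangles), 1 library against 1, by complex and genome (horizontal axis); black bars are medians. Most points lie above 0 in both fractions, and Cox7a1 stands at 1.35 in GFP-low.

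The enterocyte markers had a median log2 ratio of 0.88 for diet, and 6 of 6 Paneth markers fell, at a median of -0.87. Of 7 goblet markers 2 fell under HFD and all 7 had log2 ratios below 0 (median -0.68), with summed levels of 3159 (GFP-high) and 17749 (GFP-low) CPM under HFD, against 3568 and 40416 CPM under the control diet. Of 5 tested enteroendocrine markers 1 fell and all 5 had ratios below 0 (median -0.74), with summed levels of 78.7 and 469 CPM under HFD, against 56.1 and 1107 CPM under the control diet. These counts of markers that fell stand beside 3.0% of all tested genes. The part of these cell types in the diet ratios of the respiratory chain was not tested.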

How the data were processed

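RNA-seq was done on 1 library of GFP-high and 1 of GFP-low cells under each diet, HFD and control. The authors deposited raw read counts per Ensembl gene. Per the submitters' processing notes, cutadapt, TopHat 1.4.1 and HTSeq were used with GRCm38 (mm10); the sources used here give neither the annotation release nor the strand setting. Gene symbols were found for 36345 of 38124 IDs. The 10694 genes that reached 20 counts in 2 or more libraries entered edgeR 4.0.16 (R 4.3.3): TMM scaling, a two-sided quasi-likelihood F-test of diet and fraction in 1 additive model over the 4 libraries, Benjamini-Hochberg adjustment over all tested genes and a threshold of 0.05. With 1 residual degree of freedom, edgeR's common dispersion came to 0.00694, or a biological coefficient of variation of 0.0833, the spread is that between libraries which may be technical, and a true difference of diet response between fractions counts as spread. Diet p-values are too small if both fractions share mice. Standard errors are the log2 ratio divided by the square root of F. Ratios of 1 library to 1 used log2(CPM + 0.5) and have no test. Counts limit precision as the exact 95% intervals show, and a count of 0 was read as up to 3 counts. Positions are GENCODE M21 on GRCm38; promoters are RefSeq GRCm38.p6. DESeq2 1.42.0, other scalings, filters and pseudocounts were alternatives. Python 3.11.15, SciPy 1.17.1, pandas 2.3.3 and matplotlib 3.10.9 were used. The test was also run on counts simulated with the common dispersion above and no diet-by-fraction effect. Such counts cannot check how well the 4 libraries estimate the spread. The members and lists were chosen with earlier results of these data known. Genes were named by rule: members past the diet test, the 6 highest and 6 lowest past the fraction test, the highest and lowest diet ratio in each complex, the mitochondrially encoded genes and a set of catalytic, isoform and regulatory genes; other genes were named after their values were seen, and 1 member is counted but not reported by name here.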

Additional observations from a re-analysis of the deposited data

Results flagged for a closer look

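Cox6b2, the testis form of subunit 6b of complex IV, had too few counts to be tested but was seen mostly under HFD: 43 counts in the 2 HFD libraries together, against 10 in the 2 control libraries. It drew attention because it lies outside the tested genes and was above the level of the control libraries. Its counts were also higher in GFP-high than in GFP-low under each diet, and the HFD library of each fraction held more counts in total. The differences between the diets and between the fractions have no replicate check and were not tested.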

How the results depend on the processing

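Members called higher under HFD, 1 in the model reported, were 3 with library totals, 20 without a low-count filter, 2 with at least 100 counts, 2 with a common dispersion (an alternative chosen after seeing the data), 0 without fraction in the model and 0 with DESeq2. Members called lower in GFP-high, 65 as reported, were 26 without diet in the model and 34 with DESeq2, and 45 to 66 in the other settings run. With library totals 1 member, mt-Nd6, was called higher in GFP-high in place of 0, and 31 in place of 20 members had a larger HFD ratio in GFP-high. Library totals moved the median fraction ratio of all genes by 0.19 and turned the sign of 11 named members: Ndufa7 (0.10), mt-Nd2 (0.0134), mt-Nd3 (0.0457), mt-Nd4 (0.0745), mt-Nd5 (0.0363), mt-Cytb (0.084), mt-Co1 (0.0818), mt-Co2 (0.0258), mt-Co3 (0.034), mt-Atp6 (0.0561) and Ndufaf1 (0.11). DESeq2 turned the diet ratio of Ndufb6 (-0.0036). The cause of these changes was not tested. The mitochondrial share of counts became 17.3%, 17.3%, 15.3% and 14.5% without the 2 ribosomal RNAs, and 18.5%, 18.6%, 16.3% and 15.8% without the 10 largest other genes (in each, GFP-high and GFP-low under HFD, then GFP-high and GFP-low under the control diet). Over all genes, diet calls numbered 563 in the model reported, 189 with DESeq2, 0 without fraction and 1133 without a filter, and fraction calls 4953, 2390 with DESeq2 and 2794 without diet. No paired analysis was possible because each group holds 1 library, and no replicate could be left out. Depth limits the isoform genes and Ndufaf genes with few counts.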
